A study of Mus musculus with 38 samples.

Results

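Chromatin marks were followed at 8 transcription factor genes of the hair follicle stem cell (HFSC), namely *Lhx2*, *Nfatc1*, *Foxc1*, *Tbx1*, *Nfib*, *Nfix*, *Nfia* and *Foxi3*, while SOX9 was induced in epidermal stem cells (EpdSCs). The genes were taken by name, and each was given a window made of its gene body in GENCODE M21 with 50 kb on both sides. They are 8 of 21938 protein-coding genes to which the same rule was applied for comparison. All deposited intervals that overlapped a window by at least 1 bp were counted, for H3K4me1 and H3K27ac of skin and for H3K4me1 of cultured cells.

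The 38 samples came from MINT-ChIP, a chromatin immunoprecipitation in which the chromatin of several samples is barcoded and pooled before antibodies are added. H3K4me1, H3K27ac and total histone H3 of skin had 12 samples each, and cultured EpdSCs had 2 samples for H3K4me1. By their titles these are high and low MNase digests of the same replicates, so that samples outnumber replicates, and the 2 culture samples are 1 of each digest. All skin cells were male K14rtTA; TRE-myc-Sox9, in which the keratin 14 promoter drives the doxycycline (DOX) activator in the skin epithelium and DOX switches on MYC-tagged SOX9, and both transgenes were present in every group. D0 cells had no DOX, and W1, W2 and W6 cells came from animals injected with DOX at postnatal day 21 and then fed DOX for 1, 2 or 6 weeks. Age therefore rose with time on DOX, and no list came from skin kept without DOX to the same age. Differences from D0 thus cannot tell SOX9 apart from age or from DOX itself. W12 cells had 12 weeks of DOX in newborn skin that had been grafted onto immunocompromised hosts, so that grafting and time cannot be told apart. The sort kept back skin cells positive for the integrin CD49f and for Ly6A and negative for CD34 and for CD31, CD45, CD117 and CD140a. This gate takes interfollicular EpdSCs and leaves out CD34-positive HFSCs. The cultured cells were keratinocytes that carried K14rtTA and lentiviral SOX9 in full (WT), without the DNA-binding domain (ΔHMG) or without the transactivation domain (ΔTA), each with DOX, and the reference list was WT without DOX.

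Each mark and time point, and each culture condition, had 1 list in which the authors had merged replicates, 14 lists in all. No spread between replicates could be computed, no test was made and no p-value is given for any difference. Each share of intervals is followed by its exact 95% Clopper-Pearson bounds, for counting error alone, and neighbouring intervals of a window are not independent. A weaker mark in all cells and a mark in fewer of the sorted cells cannot be told apart in these lists.

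H3K4me1 marks enhancers that are primed or in use, and H3K27ac marks enhancers and promoters that are active, so that the pair is commonly read as an enhancer that is made ready and one that is switched on. The 8 genes encode factors of 5 families that bind DNA through different domains. LHX2 (LIM homeodomain), NFATC1 (a calcineurin-dependent factor) and FOXC1 (forkhead) are known for keeping HFSCs quiescent, TBX1 (T-box) for HFSC self-renewal, NFIB and NFIX (nuclear factor I) for HFSC identity, and FOXI3 (forkhead) for the development of hair follicles and teeth. NFIA is a relative of NFIB and NFIX that is best known from glia. The comparison therefore addressed how the marks at these follicle genes stood in epidermal cells before and after SOX9 was switched on.

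The sequences that carry the main regions are shown first, read from GRCm38.p6. The bases before the start site of *Foxc1* (chr13:31806396-31806632, plus strand, RefSeq promoter table) are given because H3K27ac appeared over this start site only in the lists from W2 on, and the capitals mark a match to TGTGGT, the letters of a RUNX motif. The bases before the start site of *Foxi3* (chr6:70956356-70956530, plus strand, RefSeq promoter table) are given as the contrast, a start with H3K4me1 in all 5 lists of skin and H3K27ac in none. The other 3 are 300-base stretches around H3K27ac summits of W2 in noncoding sequence, each written on the plus strand. In the *Lhx2* stretch (chr2:38379230-38379529, intergenic, 28645 bp downstream of the nearest *Lhx2* start site) and the *Tbx1* stretch (chr16:18587610-18587909, intron of *Tbx1*) the capitals mark the 21 bases at the summit of the interval of highest fold in each window. In the *Nfib* stretch (chr4:82542384-82542683, outside exons, in the window of *Nfib*) the capitals mark AACAAT, the letters of a SOX motif. The W2 interval of this stretch overlapped no D0 interval. D0 did have an interval, of fold 3.998, elsewhere in the region merged over the lists (chr4:82542166-82543728).
*Foxc1* promoter: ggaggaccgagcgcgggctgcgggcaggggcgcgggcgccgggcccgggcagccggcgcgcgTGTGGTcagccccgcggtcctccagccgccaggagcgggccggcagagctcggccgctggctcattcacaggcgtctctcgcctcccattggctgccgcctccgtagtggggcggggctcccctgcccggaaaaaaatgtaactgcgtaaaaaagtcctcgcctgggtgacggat
*Foxi3* promoter: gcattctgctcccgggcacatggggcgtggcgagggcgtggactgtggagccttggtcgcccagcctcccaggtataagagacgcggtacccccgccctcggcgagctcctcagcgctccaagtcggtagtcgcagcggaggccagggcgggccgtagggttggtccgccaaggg
*Lhx2* W2 summit: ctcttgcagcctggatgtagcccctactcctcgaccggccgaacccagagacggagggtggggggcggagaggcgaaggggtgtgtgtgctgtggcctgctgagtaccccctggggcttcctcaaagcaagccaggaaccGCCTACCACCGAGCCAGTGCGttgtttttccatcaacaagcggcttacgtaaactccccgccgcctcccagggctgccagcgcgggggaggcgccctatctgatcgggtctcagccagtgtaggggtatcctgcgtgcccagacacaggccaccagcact
*Tbx1* W2 summit: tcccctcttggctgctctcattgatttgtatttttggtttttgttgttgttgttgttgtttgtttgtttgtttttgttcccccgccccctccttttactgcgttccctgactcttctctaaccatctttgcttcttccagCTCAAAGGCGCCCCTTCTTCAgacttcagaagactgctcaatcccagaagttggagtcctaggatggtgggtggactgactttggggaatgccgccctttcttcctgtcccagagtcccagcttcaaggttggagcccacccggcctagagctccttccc
*Nfib* W2 summit: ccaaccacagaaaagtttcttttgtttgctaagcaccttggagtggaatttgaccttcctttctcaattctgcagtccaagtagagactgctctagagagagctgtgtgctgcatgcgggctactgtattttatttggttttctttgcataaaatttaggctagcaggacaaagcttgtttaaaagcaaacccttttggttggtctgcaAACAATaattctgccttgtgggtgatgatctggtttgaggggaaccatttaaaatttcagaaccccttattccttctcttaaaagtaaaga

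The lists held between 29081 and 33985 intervals for H3K27ac, 69439 and 87287 for H3K4me1, and 110589 and 123338 for culture. Depth was read from the H3K27ac folds, of which 83.5% to 96.1% lay on the steps of whole stacked fragments, and the background these steps gave was between 0.299 fragments at W1 and 0.677 at W6. Median H3K27ac widths were 635 bp (D0), 642 bp (W1), 821 bp (W2), 715 bp (W6) and 476 bp (W12). Of 5 markers of basal epidermis (*Krt5*, *Krt14*, *Itga6*, *Itgb4* and *Trp63*), all 5 had H3K27ac over a start site in every list. Of 5 HFSC markers (*Cd34*, *Lgr5*, *Krt15*, *Tcf7l1* and *Sox9*), 2 had it at D0, W1 and W6, 3 at W2 and 1 at W12. *Sox9* had it at the start site of its own locus in every list, D0 included, *Krt15* in all but W12 and *Tcf7l1* at W2 alone. *Cd34* and *Lgr5* had it in none. Of 3 immune markers 1 had it at W6 and none in the other 4 lists, of 3 endothelial markers 1 at W1 and none elsewhere, and the 3 fibroblast and 3 melanocyte markers had none in any list. W12 libraries also held W2 replicate 1, told apart by barcode.

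The H3K4me1 lists already covered large parts of the windows in EpdSCs before SOX9 was induced. At D0 the covered share ranged from 10.9% of the *Foxi3* window to 72.1% of the *Nfix* window, and 7 of 8 windows were above the median of all gene windows, 18.2%. For H3K27ac the D0 range was 0% for *Lhx2* and *Foxi3* to 19.9% for *Nfix*, with 5 of 8 windows above the median of all genes, 1.42%. By W2 the median over the 8 windows stood at 5.82% for H3K27ac, against 2.33% at D0, and at 53.5% for H3K4me1, against 40.4% at D0. Over all gene windows, the medians of the same lists were 1.53% and 1.42% for H3K27ac, and 16.2% and 18.2% for H3K4me1. At W1, W6 and W12 the members' medians were 2.76%, 4.07% and 2.70% for H3K27ac and 35.03%, 43.9% and 42.6% for H3K4me1. Those over all gene windows were 1.41%, 1.64% and 1.09% for H3K27ac and 15.1%, 15.9% and 15.85% for H3K4me1. H3K4me1 at W1 was thus below D0 in the members and over all genes alike.

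**Figure D1:**
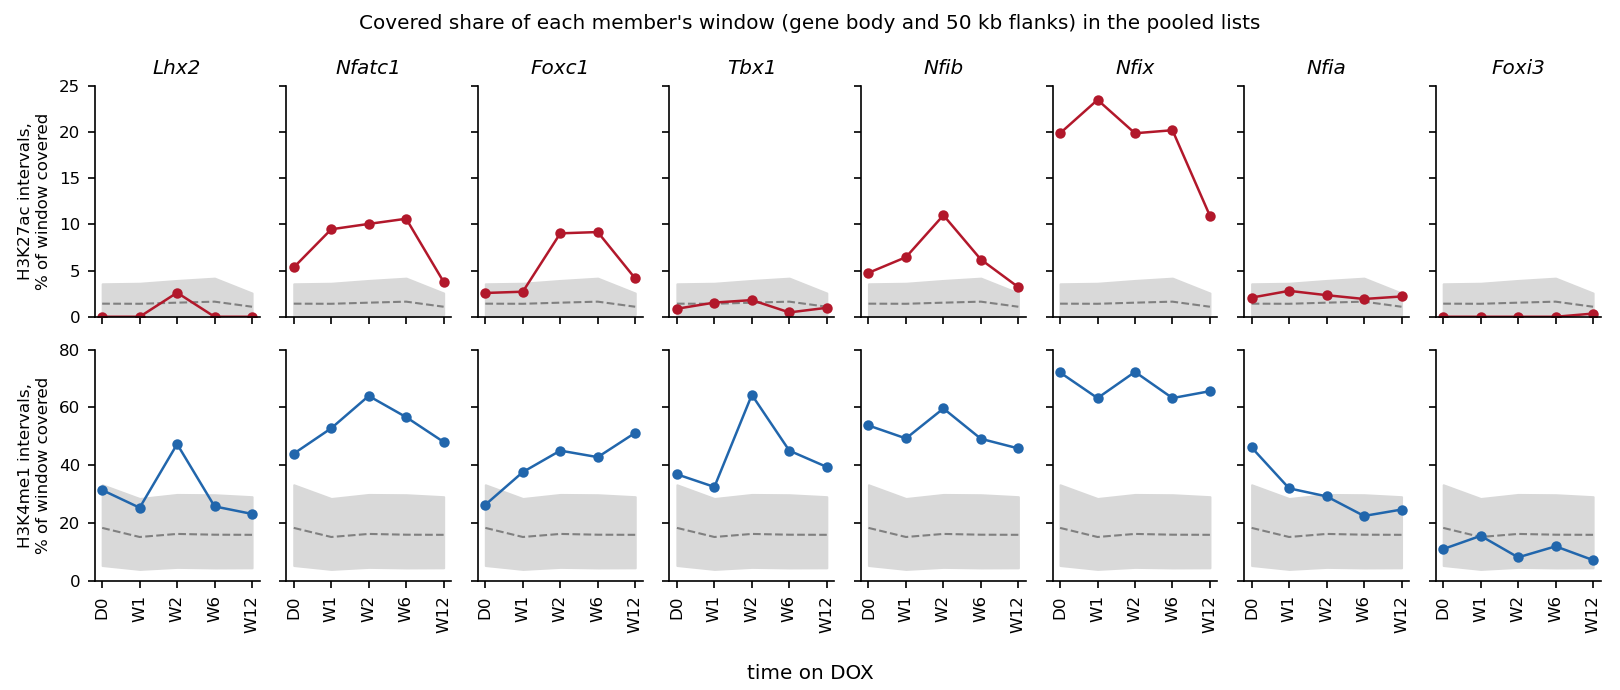
Share of each gene window (y axis, % of bases) covered by H3K27ac (top, red) and H3K4me1 (bottom, blue) intervals in the pooled lists of D0, W1, W2, W6 and W12 (x axis); the dashed line and grey band give the median and quartiles over all 21938 gene windows. *Foxc1* went from 2.58% at D0 to 9.04% at W2 for H3K27ac and *Tbx1* from 36.8% to 64.4% for H3K4me1, whereas *Nfia* went from 46.1% to 29.2% for H3K4me1.

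*Foxc1*, a single-exon gene of 5.84 kb on chromosome 13 (31806633 to 31812476, plus strand), had the largest difference in H3K27ac of the 8 between D0 and W2. H3K27ac covered 2.58% of its window (D0), 2.72% (W1), 9.04% (W2), 9.18% (W6) and 4.15% (W12). The lists of D0 and W1 were thus close, those of W2 and W6 were high and close, and W12 lay between. The order of D0 and W1 turned with flanks of 10 kb and when shares were scaled by the total of each list, and all other differences from D0 kept their direction. The difference from D0 to W2 was 6.46 percentage points, larger than that of 99.5% of all gene windows. H3K4me1 covered 26.3% (D0), 37.6% (W1), 45.0% (W2), 42.8% (W6) and 51.2% (W12), so that each list with DOX was above D0. The W12 value was 24.9 points above D0, more than in 99.96% of gene windows.

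The H3K27ac of *Foxc1* was concentrated over the gene itself and at a region upstream of it. A merged region over the gene (chr13:31805167-31812704, including the start site that follows the promoter shown above) held a highest fold of 3.998 (D0), 3.85 (W1), 11.2 (W2), 20.3 (W6) and 9.21 (W12), where fold is the enrichment over local background given in the lists. These folds stand for 5, 4, 15, 33 and 12 stacked fragments, so that D0 and W1 were near the calling limit and differed by 1 fragment. At W6 the fold was 5.07 times that at D0, a ratio above that of 99.98% of the regions held at both times. Within 500 bp of the start site no H3K27ac interval was called at D0 or W1, and at W2 an interval of 7068 bp ran over the gene. The H3K4me1 domain that covered the start at D0, of 8800 bp, was broken there from W1 on, with a gap that began just upstream of the start and ended 1.97 kb downstream of it at W1, 4.57 kb at W2 and 2.37 kb at W6. The second region, 8567 bp upstream (chr13:31797233-31798899), held folds of 5.33 (D0), 6.93 (W1), 15.4 (W2), 13.7 (W6) and 5.67 (W12). It too was highest at W2 and W6, and its W2 fold was 2.90 times that of D0. *Gmds* overlaps the window, and 1 interval at W12 overlapped that gene.

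*Nfatc1*, a gene of 106.9 kb on chromosome 18 (80606205 to 80713071, minus strand), had more H3K4me1 in every list with DOX and more H3K27ac at W1, W2 and W6. H3K27ac covered 5.35% of the window (D0), 9.48% (W1), 10.1% (W2), 10.6% (W6) and 3.78% (W12). W1, W2 and W6 were close to each other and high, and W12 was the lowest of the 5 lists. The W1 difference, 4.13 points, was above that of 98.9% of gene windows. H3K4me1 covered 44.0% (D0), 52.8% (W1), 64.0% (W2), 56.6% (W6) and 48.1% (W12), and all 4 lists with DOX were above D0. The W2 difference of 20.01 points was above that of 99.6% of gene windows.

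Of 27 merged H3K27ac regions in the *Nfatc1* window, 4 were held in every list, against 15.6% over the genome. Another 6 were absent at D0 and held in at least 2 of W2, W6 and W12, against 8.91% over the genome. The named rule took 6 such regions over all windows by highest fold, and 4 of them belonged to *Nfatc1*. A pair lay downstream of the gene, at chr18:80593767-80594996 with folds of 10.01 at W1, 4.91 at W2 and 4.77 at W6, and at chr18:80600239-80602342 with folds of 6.16, 9.82 and 7.16. Neither was called at W12. A region 4839 bp upstream of the start site (chr18:80717351-80718469) was called from W2 on, with folds of 7.02 (W2), 8.35 (W6) and 4.96 (W12), and an intronic region (chr18:80643082-80645565) from W1 on, with 3.85 (W1), 5.61 (W2), 7.75 (W6) and 4.25 (W12). H3K4me1 overlapped all 4 of these regions at D0, before any H3K27ac was called there. The region of highest fold in any list lay over an exon near the 3′ end of the gene (chr18:80606824-80611323) and was held in all lists, with folds of 13.3, 10.01, 12.6, 15.5 and 9.92 from D0 to W12.

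**Figure D2:**
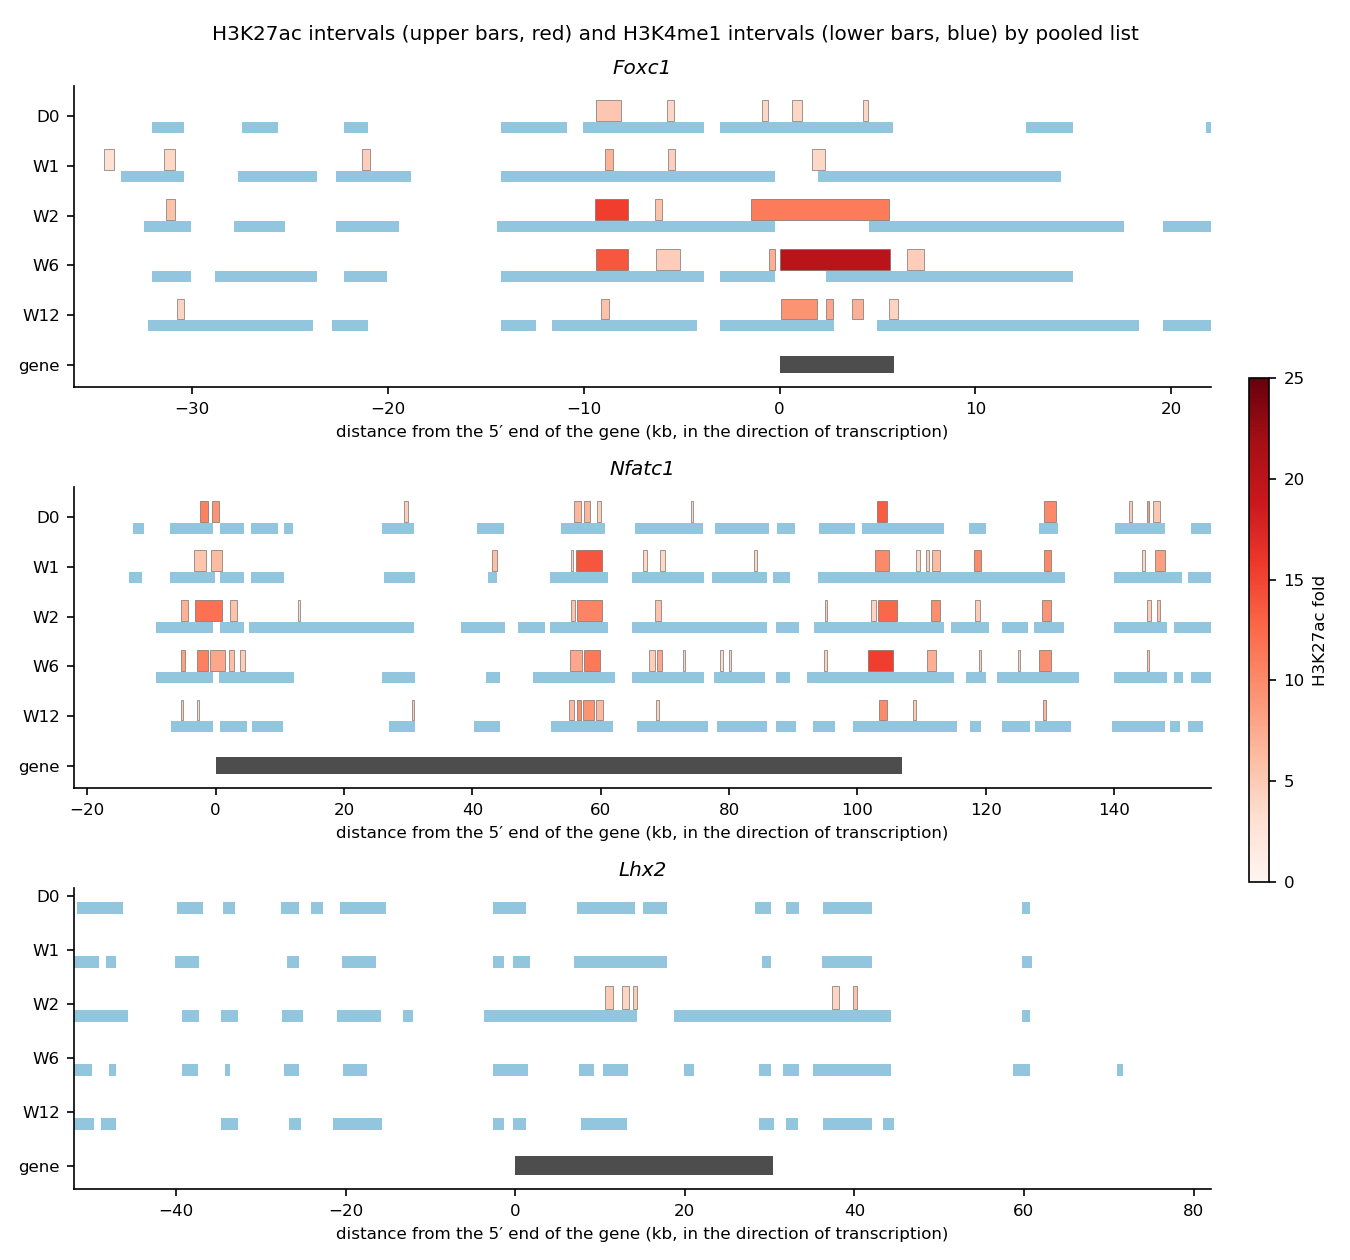
Intervals of H3K27ac (red, darker for a higher fold) and H3K4me1 (blue) in the 5 pooled lists around *Foxc1*, *Nfatc1* and *Lhx2*, against the distance from the 5′ end of the annotated gene (x axis, kb), with the gene body drawn as a bar. H3K27ac covered the body of *Foxc1* at W2 and W6, in *Nfatc1* intervals absent at D0 appeared inside H3K4me1 domains that D0 already had, and in *Lhx2* all 5 H3K27ac intervals belonged to W2.

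*Lhx2* (chr2:38339281-38369733, plus strand, 30.4 kb) had H3K27ac in 1 list only. There were 0 intervals at D0, W1, W6 and W12, and 5 intervals at W2 that covered 2.61% of the window. Their folds were between 4.21 and 5.61, that is 5 to 7 stacked fragments, below the median of 6.31 over the whole W2 list. A difference from a list with 0 intervals is therefore a difference of a few fragments near the calling limit. The first (chr2:38349905-38350802, fold 4.91) lay over an *Lhx2* start site, the next in an intron, the third over an exon, and the remaining pair 26287 bp and 28645 bp downstream of the nearest start, the second being the region of highest fold whose summit is printed above. H3K4me1 overlapped all 5 regions already at D0. H3K4me1 covered 31.4% of the window (D0), 25.2% (W1), 47.3% (W2), 25.7% (W6) and 23.1% (W12), so that W2 alone was above D0 and the other 3 were below it. At W2 a domain of 18000 bp covered the start sites and one of 25600 bp ran from the gene into its downstream flank, whereas the widest at D0 was 6800 bp. The W2 difference of 15.9 points was above that of 99.2% of gene windows.

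*Tbx1* (chr16:18580979-18590671, minus strand, 9.69 kb) had the largest W2 difference in H3K4me1 of the 8 genes. H3K4me1 covered 36.8% of the window (D0), 32.5% (W1), 64.4% (W2), 45.0% (W6) and 39.4% (W12). W2 stood apart from the other 4 lists, by 27.5 points from D0, more than in 99.91% of gene windows, while W1 was below D0, an order that turned when shares were scaled by the list total. The widest domain at W2, 20200 bp, overlapped the neighbouring gene *Gnb1l*, and the widest at D0 was 7000 bp. H3K27ac covered 0.868% (D0), 1.54% (W1), 1.81% (W2), 0.471% (W6) and 0.973% (W12), that is between 1 and 4 intervals. At D0 and W6 the single interval lay within *Sept5*, a neighbour upstream of *Tbx1*, over an exon at D0 and in an intron at W6, and W2 was the list with no interval in *Sept5*. At W2 there were 3 intervals over the gene, with folds of 4.91, 4.91 and 7.02, none of which D0 held. The highest, 692 bp upstream of the nearest *Tbx1* start site and within an intron, is the stretch printed above. It was not inside an H3K4me1 interval at W2, although D0, W1, W6 and W12 had one there.

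*Nfib* (chr4:82290173-82705750, minus strand, 415.6 kb) held more H3K27ac intervals than any other of the 8 windows in 4 of the 5 lists, with 37 (D0), 28 (W1), 49 (W2), 33 (W6) and 23 (W12). The covered shares were 4.76%, 6.46%, 11.0%, 6.20% and 3.21% in the same order, so that W2 was the highest and W12 the lowest. The W2 difference of 6.24 points was above that of 99.4% of gene windows. At the start site of *Nfib* (chr4:82502137-82506530) H3K27ac was held in every list, with folds of 12.7 (D0), 16.2 (W1), 13.3 (W2), 17.3 (W6) and 12.7 (W12). This promoter was thus marked in EpdSCs before SOX9 was induced, and the 27 of 49 W2 intervals that D0 lacked lay elsewhere in the window. Over the whole W2 list D0 lacked 40.1% of the intervals. H3K4me1 covered 53.8% (D0), 49.3% (W1), 59.7% (W2), 49.1% (W6) and 45.8% (W12), again highest at W2. The orders of W1 and W6 against D0 turned when scaled by the list total. No H3K4me1 domain was called within 500 bp of a start site at D0, W1, W2 or W6, and 1 was at W12.

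*Nfix* (chr8:84699876-84800344, minus strand, 100.5 kb) had the largest covered shares of the 8 genes for both marks in every list. H3K27ac covered 19.9% of its window (D0), 23.5% (W1), 19.9% (W2), 20.2% (W6) and 10.9% (W12). W2 and W6 were within 0.327 points of D0, and the W2 difference turned with joined gaps and the W6 difference with flanks of 10 kb and with scaling by the list total. W12 was 8.95 points below D0, lower than in all but 0.570% of gene windows. H3K4me1 covered 72.1%, 63.3%, 72.3%, 63.3% and 65.7% in the same order, and W1 and W12 were above D0 when scaled by the list total. The window also held start sites of 9 other coding genes, and its region of highest fold in any list (chr8:84659559-84665792) lay over the start of *Ier2*, an immediate early gene, with folds of 35.3 (D0), 13.1 (W1), 25.3 (W2), 19.1 (W6) and 10.6 (W12). Over start sites of *Nfix* itself the largest merged region, chr8:84774273-84787195, was held in every list with folds of 17.99, 20.02, 9.12, 17.3 and 12.7.

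*Nfia* (chr4:97772734-98118874, plus strand, 346.1 kb) was below D0 in H3K4me1 in every list with DOX, also when scaled by the list total. Its covered share was 46.1% (D0), 32.0% (W1), 29.2% (W2), 22.4% (W6) and 24.6% (W12). *Nfic*, a relative outside the 8 windows, was below D0 too, at 58.45% (D0), 53.1% (W1), 47.55% (W2), 48.8% (W6) and 43.9% (W12). The covered shares of *Nfib* and *Nfix* were below D0 at W1, W6 and W12 and above it at W2. The W6 difference of *Nfia* was -23.7 points, and 0.351% of gene windows had a lower one. Of the 39 domains at D0, 17 overlapped none at W2, where the share of the whole D0 list was 32.4%. This was the largest number of the 8 windows, and *Nfia* had the most D0 domains after *Nfib*. H3K27ac covered 2.08% (D0), 2.81% (W1), 2.34% (W2), 1.93% (W6) and 2.20% (W12), which is close to level, and the direction of the W2 and W12 differences depended on the flanks or the scaling. Within this, of 34 merged regions, 7 held at D0 were absent from W2, W6 and W12. Another 4, absent at D0, were kept, that is held in at least 2 of these lists. Over the genome these shares were 11.4% and 8.91%. The kept regions included an annotated start site (chr4:97777703-97778284) with folds of 8.47 at W1, 5.61 at W2 and 7.75 at W6, and a region 982 bp upstream of it (chr4:97775954-97777298) with 4.62 (W1), 5.61 (W2), 9.54 (W6) and 5.67 (W12). The lost region of highest fold lay in an intron (chr4:97796960-97797903), with 5.998 at D0 and 4.62 at W1. The lists therefore held a gain at a start site and a loss of broad H3K4me1 in the same gene. The highest fold of the window in any list, 20.3 at W6, was in a region near the 5′ end (chr4:97771735-97773767), which had 8.66 (D0), 5.39 (W1), 7.02 (W2) and 7.79 (W12). In those 4 lists the highest fold of the window lay elsewhere and was 15.99, 10.01, 14.03 and 9.92.

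*Foxi3* (chr6:70956531-70961066, plus strand, 4.54 kb) had almost no H3K27ac. No interval was called at D0, W1, W2 or W6, and 1 at W12, of fold 3.54 or 4 stacked fragments, 7517 bp downstream of the start site. H3K4me1 covered 10.9% of the window (D0), 15.5% (W1), 8.04% (W2), 11.9% (W6) and 7.08% (W12), below the median of all genes in 4 of the 5 lists. It lay over the start site, whose upstream bases are printed above, in all 5 lists. In culture the start site was marked in all 4 conditions too, with folds between 5.18 and 6.12. *Foxi3* was the only one of the 8 genes with H3K4me1 at the start in every list and no H3K27ac there in any.

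Set against the whole lists, the H3K27ac shares of the members' windows differed narrowly at W2. Of 119 H3K27ac intervals at W2 in the windows, 61 were absent at D0, 51.3% (41.9 to 60.5), against 40.1% of the whole W2 list. Of 97 D0 intervals, 27 were no longer called at W2, 27.8% (19.2 to 37.9), against 38.6% of the whole list. The share gained was thus higher and the share lost lower than in the whole list, and both whole-list values were just outside the counting interval. By gene, the intervals absent at D0 were 5 of 5 in *Lhx2*, 8 of 15 in *Nfatc1*, 2 of 4 in *Foxc1*, 4 of 4 in *Tbx1*, 27 of 49 in *Nfib*, 8 of 30 in *Nfix* and 7 of 12 in *Nfia*. *Nfib* alone gave 27 of the 61. Without the *Nfib* window 34 of 70 were gained, 48.6%, and 18 of 60 were lost, 30.0%, both nearer to the whole list for gains and losses. Without the *Nfix* window 53 of 89 were gained, 59.6%, and 24 of 71 were lost, 33.8%. No bounds were computed for these smaller counts, so the difference at W2 is not shown to hold without *Nfib*. In the *Nfix* window 4 of 30 W2 intervals lay at a start site of another coding gene.

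At the other time points the members' H3K27ac shares had the whole-list value inside their counting interval. At W1 42 of 97 intervals were absent at D0, 43.3% (33.3 to 53.8), against 41.3%, and 31 of 97 D0 intervals were lost, 32.0% (22.9 to 42.2), against 37.4%. At W6 43 of 96 were absent at D0, 44.8% (34.6 to 55.3), against 39.8%, and 36 of 97 were lost, 37.1% (27.5 to 47.5), against 37.8%. At W12 43 of 89 were absent at D0, 48.3% (37.6 to 59.2), against 56.2%, and 58 of 97 were lost, 59.8% (49.3 to 69.6), against 53.7%. W12, from grafted skin, was the list in which most D0 intervals were missing, in the windows and in the whole list alike.

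For H3K4me1 the shares gained and lost were below those of the whole lists at all 4 times. At W1 2 of 135 intervals were absent at D0, 1.48% (0.180 to 5.25), against 5.96%, and both were in *Nfib*. At W2 it was 12 of 120, 10% (5.28 to 16.8), against 20.0%, at W6 15 of 147, 10.2% (5.83 to 16.3), against 17.1%, and at W12 11 of 142, 7.75% (3.93 to 13.4), against 15.6%. All 4 whole-list values lay above the members' interval. The larger cover of W2 thus came with fewer intervals, as 120 at W2 covered a median of 53.5% of a window and 152 at D0 covered 40.4%. Fewer and wider domains at W2 were also a trait of the whole list. It held 73415 intervals of median width 2800 bp at W2, against 87287 of 2400 bp at D0. Its covered bases were lower at W2, however, at 294.5 Mb against 309.7 Mb. Of the 152 D0 intervals, 29 were lost at W1, 19.1% (13.2 to 26.2), against 27.8%, and 29 at W2, 19.1% (13.2 to 26.2), against 32.4%. At W6 30 were lost, 19.7% (13.7 to 26.96), against 26.6%, and at W12 39, 25.7% (18.9 to 33.4), against 31.2%. The whole-list values of W6 and W12 were inside the members' interval and those of W1 and W2 above it. *Nfia* gave 13, 17, 17 and 18 of these losses from W1 to W12.

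**Figure D3:**
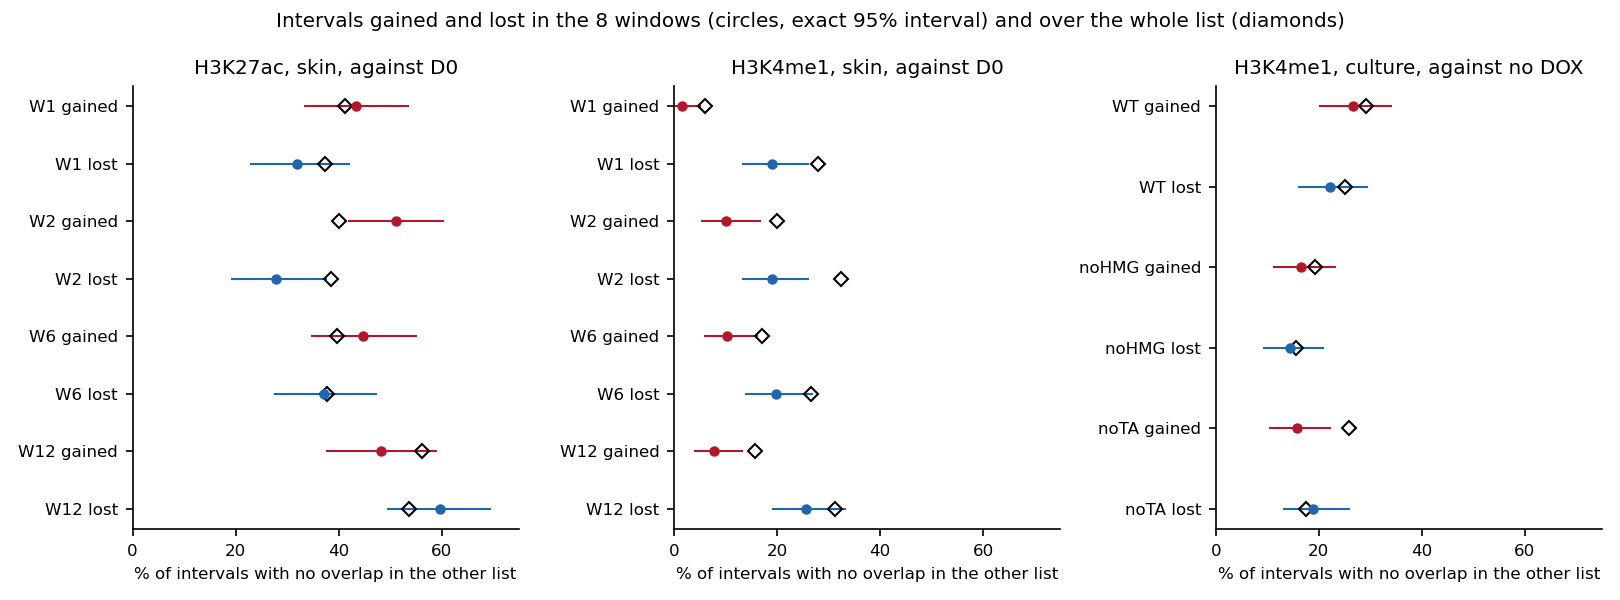
Share of intervals (x axis, %) absent from the reference list (gained) or from the later or DOX list (lost) for the 22 comparisons, with circles and exact 95% intervals for the 8 windows and diamonds for the whole list. For H3K27ac at W2 the gained share of the windows was 51.3% and that of the whole list 40.1%, and for H3K4me1 the gained shares of the windows lay below the whole list at all 4 times.

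The new H3K27ac lay on H3K4me1 that EpdSCs had before induction. Of the 61 W2 intervals absent from the D0 H3K27ac list, 55 overlapped a D0 H3K4me1 domain, 90.2% (79.8 to 96.3), and the value for the whole list was 89.3%. At W12 it was 39 of 43, 90.7% (77.9 to 97.4), against 56.8% of the whole list. The whole-list value was thus inside the members' interval at W2 and below it at W12. D0 H3K4me1 also covered more of 7 of the 8 windows than of the median gene window, and its part in this was not tested. Where H3K27ac was lost, H3K4me1 mostly stayed, as 26 of the 27 D0 intervals lost at W2 still overlapped an H3K4me1 domain at W2, 96.3% (81.0 to 99.9), against 86.7%.

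In merged regions, 182 for H3K27ac over the windows, 26 were held in all 5 lists, 14.3% (9.55 to 20.2), against 15.6% over the genome. Another 21 were absent at D0 and held in at least 2 of W2, W6 and W12, 11.5% (7.29 to 17.1), against 8.91%, of which 7 belonged to *Nfib*, 6 to *Nfatc1*, 4 to *Nfia*, 2 each to *Tbx1* and *Nfix* and 0 to *Lhx2*, *Foxc1* and *Foxi3*. Conversely 17 held at D0 were absent at W2, W6 and W12, 9.34% (5.54 to 14.5), against 11.4%, and 7 of these were in *Nfia*. Regions called at W12 only were 18, 9.89% (5.97 to 15.2), against 21.2%. For H3K4me1, 73 of 126 merged regions were held in every list, 57.9% (48.8 to 66.7), against 39.5%.

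Regions held at both D0 and a later time were compared by the ratio of their folds. The median ratio over the windows was 0.954 at W1 (50 regions), 1.05 at W2 (51), 1.13 at W6 (47) and 0.845 at W12 (32), against 0.722, 0.8698, 1.0 and 0.709 over the whole lists. The members' medians were above those of the whole lists at all 4 times, and at W2 37 of 51 regions were. Depth moves these ratios in a list as a whole, so only the comparison with the whole list at the same time was made. A held region must be called in both lists, so a region weak at D0 cannot have a low ratio. Median D0 folds were 3.998 in *Foxc1*, 4.665 in *Nfib*, 5.331 in *Nfia* and *Tbx1*, 6.331 in *Nfix* and 6.664 in *Nfatc1*. The whole D0 list had 5.998, and the part of D0 strength in the ratios was not tested. At W2 the highest ratios were those of a pair of *Foxc1* regions, 2.90 and 2.81, followed by 3 regions of *Nfib* at 2.11 each. The third held region of *Foxc1* had 1.40. Held means that both lists had an interval in the merged region, and these need not overlap. Among the regions where they did not were the *Nfib* region chr4:82542166-82543728 and the third *Foxc1* region (chr13:31800256-31801544). There the W2 intervals counted as gained above, and the ratio is between different intervals. In the *Nfix* region chr8:84769924-84774027 the W2 interval of highest fold, 7.72, also overlapped no D0 interval, and the ratio there was 1.16. Called widths at W2 were 1.30 times those of D0 over the windows, against 1.10 over the whole list.

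**Figure D4:**
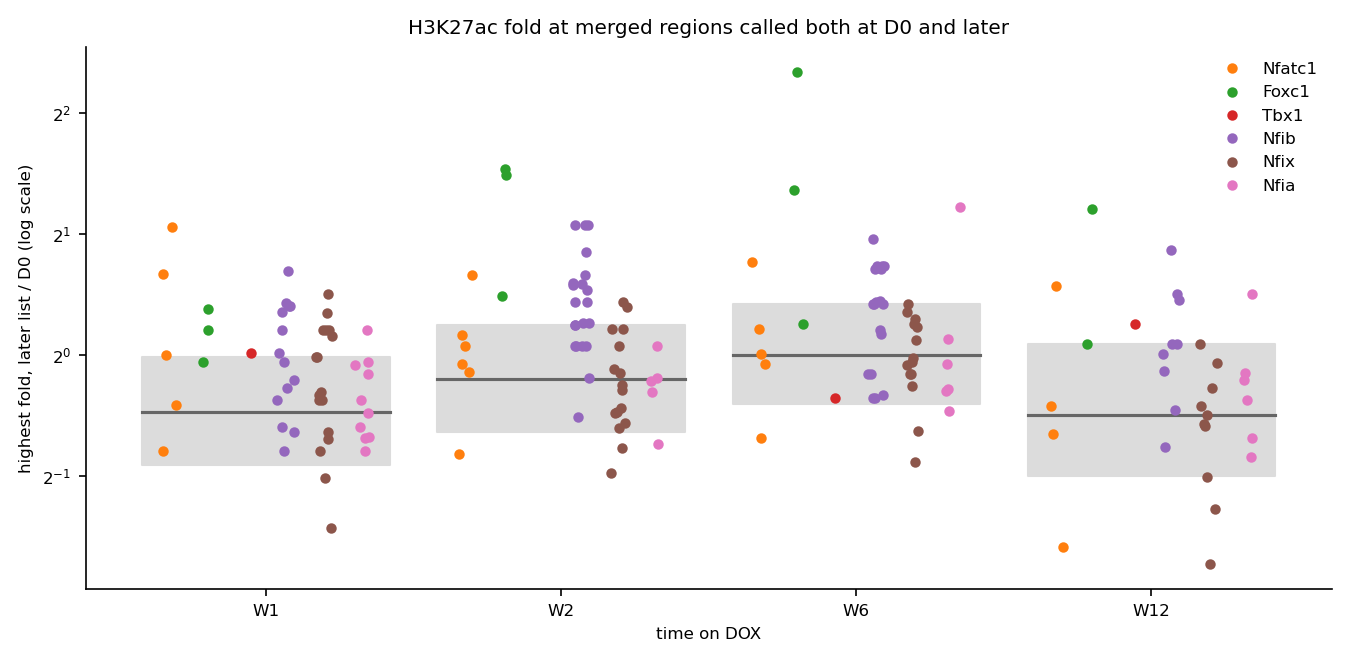
Ratio of the highest fold at W1, W2, W6 and W12 to that at D0 (y axis, log scale) for H3K27ac regions held at both times, with 1 point per region, the later list along the x axis and the gene by colour; the grey band and line give the quartiles and median of the whole lists. The region over *Foxc1* was 5.07 times its D0 fold at W6, and the median of the windows at W2 was 1.05 against 0.8698 for the whole list.

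In culture the whole-list share of H3K4me1 intervals gained was inside the members' counting interval for WT and ΔHMG and above it for ΔTA. The whole-list shares lost were inside it for all 3 forms of SOX9. For WT the members' gained share was 33.1%, above the whole list, when intervals were assigned by the nearest coding start site. With WT SOX9 43 of 161 intervals were absent without DOX, 26.7% (20.1 to 34.2), against 29.1%, and 34 of 153 intervals of the list without DOX were lost, 22.2% (15.9 to 29.6), against 25.1%. With ΔHMG 26 of 157 were absent without DOX, 16.6% (11.1 to 23.3), against 19.3%, and 22 of 153 were lost, 14.4% (9.24 to 20.96), against 15.6%. With ΔTA 24 of 153 were absent without DOX, 15.7% (10.3 to 22.4), below the 25.8% of the whole list, and 29 of 153 were lost, 18.95% (13.1 to 26.1), against 17.5%. *Nfia* and *Nfib* each gave 13 of the 43 intervals gained with WT. *Lhx2* covered 7.63% of its window without DOX, 6.62% with WT, 11.7% with ΔHMG and 12.6% with ΔTA, so that the WT list was the lowest. With flanks of 10 kb the lists with WT and without DOX were equal, at 12.65%, and ΔTA was the lowest, at 12.3%. *Tbx1* covered 21.5% without DOX, 24.0% with WT, 21.02% with ΔHMG and 16.2% with ΔTA, where the ΔTA difference of -5.28 points was lower than all but 0.884% of gene windows. For the other 6 genes the WT list differed from the list without DOX by at most 3.32 points, the value of *Nfix*.

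At W2 the new H3K27ac of skin overlapped culture domains in a smaller share in these windows than in the whole list. Of the 61 W2 intervals absent at D0, 25 overlapped a domain of the WT list, 41.0% (28.5 to 54.3), against 65.3% over the whole list. Likewise 25 overlapped a domain of the list without DOX, 41.0% (28.5 to 54.3), against 56.6%. For ΔHMG the values were 36.1% (24.2 to 49.4) against 53.8% and for ΔTA 42.6% (30.0 to 55.9) against 54.9%. The whole-list value was thus inside the members' interval for ΔTA alone. The W2 count over the windows was equal for the lists with WT and without DOX, whereas the share of the whole list was higher with WT. At W1, W6 and W12 the members' shares were also lower. The whole-list values were outside the members' interval only for WT and ΔHMG at W1 and for ΔTA at W6. At W12 all were inside, for WT 27.9% (15.3 to 43.7) against 39.7%.

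Other genes were taken as lists to place the 8 members. From D0 to W2, H3K27ac cover was higher in 6, lower in 1 and equal in 1 of the 8 members (median difference 1.77 points), and the lower one, *Nfix*, differed by -0.00399 points. It was higher in 12, lower in 5 and equal in 1 of 18 other hair follicle factors (1.18), higher in 5 and lower in 11 of 16 epidermal factors (-1.54), and higher in 5, lower in 4 and equal in 3 of 12 family relatives of the members (0.0). Over all genes 42.2% were higher and 33.6% lower, with a median difference of 0.0. For H3K4me1 the counts were 6 higher and 2 lower for the members (10.9 points), 12 and 6 for the other hair follicle factors (3.83), 4 and 12 for the epidermal factors (-4.33) and 3 and 9 for the relatives (-3.02), with 28.6% higher and 57.1% lower over all genes (-1.01). At W2 the members and the other hair follicle factors thus lay on one side of the all-gene median in both marks and the epidermal factors on the other. This was so at W2 alone. At W1, W6 and W12 the H3K4me1 medians of the members (-4.44, -1.835 and -5.16 points), the other hair follicle factors (-6.21, -3.32 and -2.78) and the epidermal factors (-3.855, -2.60 and -4.40) were all below the all-gene median, and the H3K27ac median of the epidermal factors was above it at W1 (0.101) and W6 (0.281). The lists were chosen with earlier results of these data known, and these counts are a description.

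Single genes in the lists did not all follow their group. The hair follicle factors with the largest H3K27ac differences were *Vdr* (7.96 points), which encodes the vitamin D receptor, *Runx1* (6.98), *Barx2* (6.12) and *Tcf7l2* (4.05), a transcription factor of WNT signalling. Among epidermal factors, *Grhl3*, a grainyhead factor of barrier formation, had -6.70 points, while *Cebpb* (8.61), *Tfap2a* (5.77) and *Trp63* (5.51) were higher. Among relatives *Nfatc4* was lower (-3.39) and *Nfatc2* (1.98), *Nfatc3* (1.66) and *Lhx1* (1.22) were higher.

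**Figure D5:**
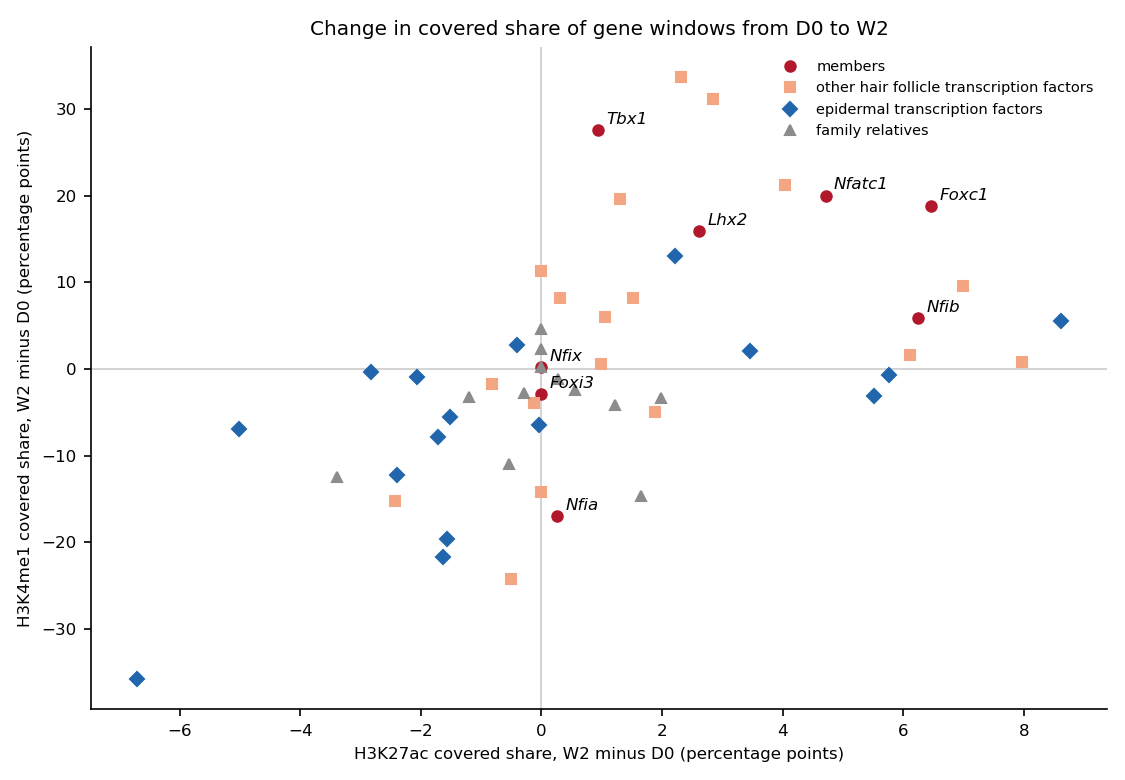
Difference in covered share from D0 to W2 (percentage points) for H3K27ac (x axis) and H3K4me1 (y axis), 1 point per gene, coloured by gene list. *Foxc1*, *Nfatc1*, *Nfib*, *Lhx2* and *Tbx1* lie in the field where both marks were higher, and *Grhl3* lies lowest, at -6.70 and -35.8 points.

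The time course of each gene was also compared with the 51 other genes of these lists, by Pearson's r over 10 values (5 time points of each mark, scaled to the mean of the mark). The closest gene was *Barx2* for *Nfib* (0.943), *Dlx3* for *Nfix* (0.937), *Lhx1* for *Nfatc1* (0.891), *Nfatc2* for *Foxc1* (0.873), *Tcf7l2* for *Tbx1* (0.8705) and *Nfatc3* for *Nfia* (0.611). For *Lhx2* it was *Trp63* (0.961) and for *Foxi3* *Tbx5* (0.987), but both members had H3K27ac in 1 list only, which sets most of the value. The points share lists and the depth of each list, and no test was made.

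Motif letters were searched on both strands in the 300 bases around H3K27ac summits, AACAAT for SOX, TAATTA for LIM homeodomain, GTAAACA for forkhead, TGTGGT for RUNX, TGANTCA for AP1 and the palindromic NFI motif, and the letters of the SOX and forkhead motifs can overlap. AACAAT was in 20 of 119 W2 summits of the windows, 16.8% (10.6 to 24.8), against 12.01% of the whole W2 list, and in 10 of 97 D0 summits, 10.3% (5.06 to 18.1), against 9.91%. Among W2 summits absent at D0 it was in 12 of 61, against 16.1% of those of the whole list, and the *Nfib* stretch printed above is 1 of the 12. TGTGGT was in 24 of 119 W2 summits, 20.2% (13.4 to 28.5), against 18.02%, and TGANTCA in 14, 11.8% (6.58 to 18.9), against 9.34%. TAATTA and GTAAACA were in 5 each, 4.20% (1.38 to 9.53), against 4.67% and 3.91%. The NFI motif was in 0 of 119, which allows a share of up to 3.05%, and in 0.0378% of the whole list. All these whole-list shares were inside the members' intervals. Of 11 RefSeq promoters of 6 members, 3 held TGTGGT (*Foxc1* and *Nfix*), against 16.8% of 32851 promoters of the same 300 bases, and 0 held AACAAT, against 10.7%. A match is a description of letters, and its absence says only that the letters are not in the window.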

How the data were processed

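Intervals of H3K4me1 and H3K27ac were taken from the lists the authors deposited, 1 for each mark and time point or culture condition. As the study's methods state, barcodes separated the samples, Skewer removed adapters, Bowtie2 (2.2.9 in the submitters' processing notes) placed the pairs on GRCm38/mm10, Picard took out duplicates and SAMtools (1.9) merged replicates. H3K27ac peaks were called with MACS2 (2.1.1) and H3K4me1 domains with epic2. How these callers were set, and with which control, is not given in the sources used here. The name of the W12 H3K27ac list carries a q-value setting that the other 4 names lack, but the lowest score, which is 10 times −log10 q cut to a whole number, was 13 in all 5 deposited lists. Other differences in calling cannot be seen. The methods do not separate culture from skin for H3K4me1, and the culture lists have the layout of MACS2 broad peaks. The authors' H3K4me1 lists of skin give a p-value per domain. The deposited H3K27ac and culture lists give, per interval, a score, the fold over local background as a linear ratio, and p and q as −log10 values, of which q was not used. Read depth is not given in the lists and was inferred only for H3K27ac, from the steps of the fold, (fragments + 1)/(background + 1), so that strong intervals rest on more fragments than those near the calling limit.

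Positions count from 1 with both ends included. Lists were set on 21 chromosomes, the mitochondrial genome aside, with Python 3.11.15, numpy 2.4.6, pandas 2.3.3 and scipy 1.17.1, and no interval ran past a chromosome end of GRCm38. For 8 windows and for those of 21938 protein-coding genes (gene body and 50 kb flanks, GENCODE M21 basic set), intervals overlapping by 1 bp were counted, covered bases were taken as a share of the window, and the highest fold was kept. An interval was gained when the reference list (D0, or culture without DOX) had none overlapping it, and lost in the reverse case. Gene windows overlap one another, and percentiles over them are descriptions. Regions were merged over the 5 lists of a mark. Regions named singly were the 6 gained of highest fold, the 4 lost of highest D0 fold and the highest of each gene, beside those over start sites, and at most 4 examples of each gene list were the largest H3K27ac differences from D0 to W2. The *Foxc1* region upstream of the gene, further regions of *Foxc1*, *Lhx2* and *Tbx1*, and the printed *Nfib* stretch were chosen after their values were seen. The genes and lists were chosen with earlier results of these data known. Counting functions were tested on simulated lists. The other settings tried were intervals that share 50% of the shorter one, intervals past the median score, lists of equal length, flanks of 10 kb, the nearest coding start site, joined gaps below 1000 bp, scaling by the list total and, chosen after seeing the data, leaving out the *Nfib* or the *Nfix* window. Total H3, which has samples but no list, and 14 barcode files were not used here. Promoter letters come from RefSeq, GRCm38.p6, where *Nfib* and *Nfatc1* were not matched.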

Additional observations from a re-analysis of the deposited data

How the results depend on the processing

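The lists pool replicates, so that leaving out a replicate was not possible and no spread stands behind any value. Of the 22 shares, all stayed inside their counting interval with an overlap of 50%. All 22 moved outside it when only intervals past the median score of their own list were asked for, with the other list in full, which by construction drops intervals near the calling limit. For H3K27ac the shares gained were then 20.8% (whole list 18.6%), 26.1% (17.8%), 23.8% (16.5%) and 19.6% (31.6%) in the order of time, and those lost 5.88% (14.3%), 5.88% (14.7%), 0.0% (13.6%) and 23.5% (29.9%). For H3K4me1 the shares gained were 0.0% (1.51%), 3.66% (6.40%), 2.50% (5.52%) and 1.16% (4.42%), and those lost 4.30% (4.13%), 6.45% (12.1%), 6.45% (8.36%) and 9.68% (10.4%). In culture WT gave 17.98% gained (18.9%) and 4.88% lost (9.86%), ΔHMG 4.17% (6.13%) and 4.88% (4.04%), and ΔTA 4.35% (11.3%) and 4.88% (5.82%). The order of windows and whole list at W2 was the same as in the report for both marks, on 46 gained and 34 lost H3K27ac intervals asked for, whereas H3K27ac lost at W12, H3K4me1 lost at W1 and culture ΔHMG and ΔTA lost changed sides. Over 132 values with a whole-list share, from all settings but the overlap of 50%, 15 changed sides, these 4 included. By the nearest coding start site they were H3K27ac lost at W6 (40.2%), culture WT gained (33.1%) and lost (27.85%) and ΔHMG lost (18.35%), with flanks of 10 kb H3K27ac lost at W6 (41.5%) and ΔTA lost (17.0%), without the *Nfix* window H3K27ac lost at W1 (39.4%) and W6 (42.25%), gained at W12 and ΔHMG lost (15.75%), and without the *Nfib* window H3K27ac lost at W12 (51.7%). Lists of equal length gave 9.63% of H3K4me1 gained (12.7%) and 11.2% lost (17.4%) at W1. H3K4me1 gained at W12 was 2.13% (15.6%) with flanks of 10 kb, and at W1 5.84% (5.96%) by the nearest coding start site and 0.0% without the *Nfib* window. H3K27ac gained at W12 was 60.7% (56.2%) without the *Nfix* window, above the whole list and no longer below it. For covered shares, the direction against the reference turned, or the difference fell to 0, in 5, 2 and 3 of 32 H3K27ac differences with flanks of 10 kb, joined gaps and scaling by the list total, in 0, 0 and 5 of 32 for H3K4me1, and in 4, 2 and 2 of 24 in culture. The causes were not tested.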
